A study of Mus musculus with 36 samples.

Results

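The genes described here are the Zfp zinc finger genes of the mouse that lie in clusters. They were defined by name and position, under a rule set with earlier results of these data known. Members are protein-coding autosomal genes with a symbol of Zfp and a number, Zfp42 left out. Each has at least 2 other such genes starting within 500 kb. Of 385 Zfp genes, 230 met this rule, and the 155 remaining Zfp genes served as the contrast, within 20661 autosomal protein-coding genes in all. The 4 genes given as markers of the set, Zfp808, Zfp934, Zfp935 and Zfp992, were all among the 230. At the edge of the rule, 38 members had exactly 2 Zfp neighbours within that distance, 34 remaining genes had 1 and 121 had 0. Members joined into 34 clusters on 14 chromosomes, with 1 to 24 members each, and 79 members lay on chromosome 7. Clusters are called by chromosome and a letter in order along it, such as 13a.

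Most clustered genes of this kind encode proteins with a KRAB domain and a row of C2H2 zinc fingers. The fingers read DNA, often within transposable elements, and the KRAB domain recruits TRIM28 (KAP1), which brings SETDB1 and heterochromatin protein 1 and leads to trimethylation of histone H3 at lysine 9. The clusters grew by repeated gene duplication, and the finger array is usually encoded by the last coding exon, so neighbouring members resemble each other in sequence. Chromatin over such clusters is itself known to carry heterochromatin marks and the histone variant H3.3 in embryonic stem cells. Histone H4 is the partner of H3 in the nucleosome core, and its lysine 91 lies at the contact between the H3-H4 tetramer and the H2A-H2B dimers.

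The study placed HA-tagged histone H4 in mouse embryonic stem cells (mESCs) by a PiggyBac transgene and asked where the wild-type and the K91 mutant forms are incorporated. Cells carried an empty PiggyBac vector, H4WT with an HA tag (3HA in the labels), or the same construct with lysine 91 changed to arginine (H4K91R, which keeps the charge) or to glutamine (H4K91Q, which removes it). All 4 lines were otherwise the parental mESCs, the tagged H4 was added to the cells' own H4, and no label gives the number of clones. Chromatin fixed with paraformaldehyde was pulled down on anti-HA beads and sequenced. Peak lists of these 4 pulldowns, 1 library per group, were analysed here; the other 32 of 36 samples were not. With 1 library per group there is no replicate check of any difference between the lists, no test was made, and the exact (Clopper-Pearson) 95% intervals given with shares cover counting error only. Sequencing depth is unknown, since no read numbers come with the peaks. The H4WT list is the longest with 69158 peaks, H4K91R has 49155, H4K91Q 14314 and the empty vector 3007, and a share of genes can move with list length. Tagged regions that overlapped an empty-vector region were left out, which removed 7 H4WT, 6 H4K91R and 0 H4K91Q regions in members.

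Clustered Zfp genes had H4WT and H4K91R regions less often than the genome's genes, and H4K91Q regions more often. A gene was called marked where a region of the list touched the gene or the 1 kb on either side. H4WT marked 126 of 230 members, or 54.8% (95% interval 48.1 to 61.3), where 70.8% of all autosomal protein-coding genes were marked. H4K91R marked 104 members, or 45.2% (38.7 to 51.9), against 55.3% of all genes. H4K91Q marked 33 members, or 14.3% (10.1 to 19.6), against 7.59% of all genes. The empty vector, the background of the pulldown, marked 9 members, or 3.91% (1.80 to 7.30), against 8.01% of all genes. None of the 4 intervals included the all-gene share. The empty-vector background was thus also less frequent in members, as were H4WT and H4K91R. The H4K91R difference depended on how the list was cut. With the H4WT and H4K91R lists shortened to the length of the H4K91Q list, H4K91R marked 26.5% of members and 25.8% of all genes. With only peaks of −log10 q of 5 or more (q of the authors' peak calls), it marked 32.6% of members and 40.7% of all genes.

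The remaining Zfp genes differed from the members in H4WT and H4K91R but not clearly in H4K91Q. H4WT marked 131 of these 155 genes (84.5%, 77.8 to 89.8) and H4K91R marked 99 (63.9%, 55.8 to 71.4), both above the members' intervals. H4K91Q marked 19 of them (12.3%, 7.54 to 18.5), an interval that overlaps that of the members. With neighbours counted within 250 kb or 1 Mb in place of 500 kb, H4K91Q marked 12.5% and 13.3% of clustered genes and 14.5% and 13.9% of remaining ones, so the order of these sets is not settled. The empty vector marked 10 (6.45%, 3.14 to 11.5). The remaining genes were longer, with a median of 21.8 kb against 16.1 kb for members and 17.5 kb for all genes, and a longer gene offers more room for a region.

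**Figure D1:**
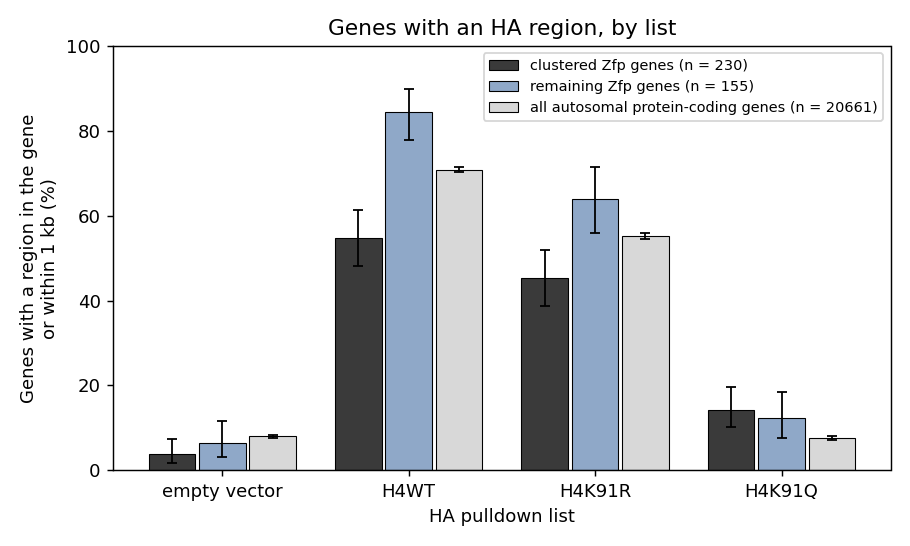
Share of genes with a region in the gene or within 1 kb (y axis, percent) in each of the 4 HA pulldown lists (x axis), for 230 clustered Zfp genes, 155 remaining Zfp genes and all 20661 autosomal protein-coding genes. Bars are shares of 1 library each and error bars are exact 95% intervals for counting error; the clustered genes are lowest of the 3 sets in H4WT (54.8%) and H4K91R (45.2%) and in H4K91Q they stand at 14.3%, above all genes and within the interval of the remaining Zfp genes, an order that turns with a neighbour distance of 250 kb or 1 Mb.

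Within bands of gene length the members' low H4WT share stood at lengths of 10 to 40 kb, which hold most of them. Among genes of 10 to 20 kb, H4WT marked 55 of 106 members (51.9%, 42.0 to 61.7), 79.6% of remaining Zfp genes and 73.1% of all genes. Among genes of 20 to 40 kb it marked 34 of 75 members (45.3%, 33.8 to 57.3), against 75.6% and 77.5%. H4K91R marked 31.1% of members of 10 to 20 kb (22.5 to 40.9), against 51.0% of remaining Zfp genes and 55.2% of all genes. At 20 to 40 kb it marked 45.3% (33.8 to 57.3), against 48.9% and 59.5%. At 40 kb or more it marked 13 of 15 members (86.7%, 59.5 to 98.3), against 74.9% of all genes. Members under 10 kb stood above all genes of that length in both lists. Of these 34, H4WT marked 25 (73.5%, 55.6 to 87.1), above 52.3%, and H4K91R marked 24 (70.6%, 52.5 to 84.9), above 37.9%. H4K91Q marked a larger share of members than of all genes in every band, within counting error at 10 to 20 kb, and the gap was widest at 40 kb or more. It marked 3 of 34 members under 10 kb (8.82%, 1.86 to 23.7) against 1.50% of all genes, 7 of 106 members of 10 to 20 kb (6.60%, 2.70 to 13.1) against 3.87% of all genes, 14 of 75 members of 20 to 40 kb (18.7%, 10.6 to 29.3) against 6.94%, and 9 of 15 members of 40 kb or more (60%, 32.3 to 83.7) against 18.2%. In the 40 kb band the remaining Zfp genes had H4K91Q in 12 of 39 (30.8%, 17.0 to 47.6), an interval that overlaps that of the members.

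**Figure D2:**
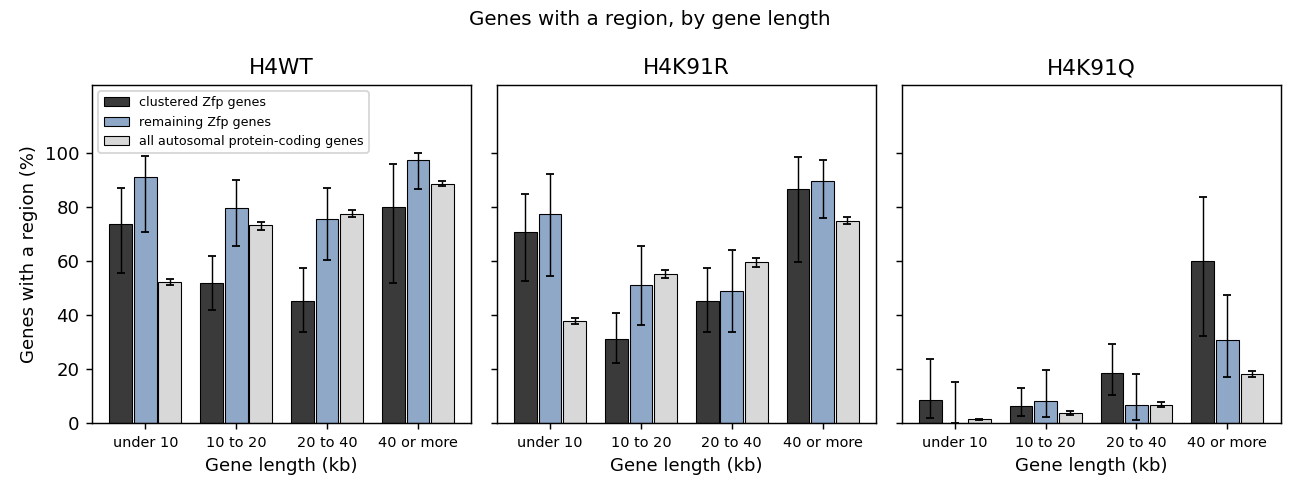
Share of genes with a region (y axis, percent) by gene length in kb (x axis) in the H4WT, H4K91R and H4K91Q lists. Bars are clustered Zfp genes, remaining Zfp genes and all autosomal protein-coding genes, with exact 95% intervals for counting error; the clustered bars are below the others for H4WT between 10 and 40 kb and above them for H4K91Q at 20 kb and over.

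Counted as regions per Mb of gene windows, without matching for gene length, members held about as many H4WT regions as genes at large. They held more mutant regions, above all of H4K91Q, although H4K91R marked a smaller share of members at 10 to 40 kb. The merged windows of the members cover 5.48 Mb and held 271 H4WT, 242 H4K91R, 101 H4K91Q and 9 empty-vector regions. That is 49.4 H4WT regions per Mb against 48.9 over all protein-coding genes, 44.1 H4K91R regions per Mb against 29.2, and 18.4 H4K91Q regions per Mb against 3.3. The empty vector had 1.64 regions per Mb in members and 2.02 in all genes. The remaining Zfp genes had 63.9 H4WT, 41.3 H4K91R and 6.53 H4K91Q regions per Mb. Zfp978 and Zfp993 are gene models of 267 and 479 kb that run over neighbouring members; without them the members' densities were 53.1 for H4WT, 46.0 for H4K91R and 17.5 for H4K91Q. H4WT regions were thus as dense in members as in genes at large, while fewer members had one. The H4K91Q regions lay in few members. Zfp978 held 15 of them, Zfp982 12, Zfp808 9 and Zfp934 9, and 197 of 230 members had none. No density was taken without Zfp982, Zfp808 and Zfp934.

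By combination of lists, 80 members had no tagged region (34.8%, 28.6 to 41.3), against 12.9% of remaining Zfp genes and 26.2% of all genes. H4WT with H4K91R marked 65 members (28.3%, 22.5 to 34.6), below the 46.1% of all genes. H4WT alone marked 42 (18.3%, 13.5 to 23.9), near the 18% of all genes. H4K91R alone marked 10 (4.35%, 2.10 to 7.85; all genes 2.15%), H4K91Q alone 3 (1.30%, 0.270 to 3.76; all genes 0.213%), and H4WT with H4K91Q 1 (0.435%; all genes 0.281%). Both mutants without H4WT marked 11, which is 4.78% of members (2.41 to 8.40) and 0.634% of all genes (0.530 to 0.752). With empty-vector overlaps kept this count was 10. All 3 together marked 18, or 7.83% of members (4.70 to 12.1) and 6.46% of all genes, which the members' interval includes. Of the 33 members with an H4K91Q region, 29 also had an H4K91R region (87.9%, 71.8 to 96.6) but 19 an H4WT region (57.6%, 39.2 to 74.5). Over all genes marked by H4K91Q the last share was 88.8%, and in remaining Zfp genes it was 18 of 19 (94.7%, 74.0 to 99.9).

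Region by region, sharing with H4K91Q and of H4WT with H4K91R was more frequent in members than over the autosomes. Of 101 H4K91Q regions in members, 72 overlapped an H4K91R region (71.3%, 61.4 to 79.9) and 36 an H4WT region (35.6%, 26.4 to 45.8), where the shares over all autosomal H4K91Q regions were 53.2% and 18.6%. Of 271 H4WT regions in members, 139 overlapped H4K91R (51.3%, 45.2 to 57.4) and 33 overlapped H4K91Q (12.2%, 8.53 to 16.7), against 37.7% and 3.99% over all autosomal H4WT regions. Of 242 H4K91R regions in members, 72 overlapped H4K91Q (29.8%, 24.1 to 35.9) against 15.9%, while 137 overlapped H4WT (56.6%, 50.1 to 62.9), an interval that includes the autosomal 54.2%. These shares stand beside the 11 members that were marked by the mutants alone. Wide regions were also more frequent in members: 5.54% of the H4WT regions were 1 kb or wider (3.13 to 8.96) against 2.17% over the autosomes, and in H4K91R 6.20% were (3.51 to 10) against 1.29%. For H4K91Q the shares were 7.92% (3.48 to 15) and 5.34%, which do not differ beyond counting error. In remaining Zfp genes, 57.4% of 54 H4K91Q regions overlapped H4K91R (43.2 to 70.8) and 20.4% overlapped H4WT (10.6 to 33.5). Both intervals overlap those of the members. Overlap between lists rises with the number of regions in a place, and no allowance was made for that here. Intervals for shares of regions, here and by position in the gene, treat regions as independent. They are too narrow where a few members hold many regions, as Zfp978, Zfp982, Zfp808 and Zfp934 do in H4K91Q.

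Clusters differed widely from each other. Every member was marked by H4WT in 10 clusters (2b, 5b, 6, 7a, 7b, 7i, 9b, 9c, 15a and 16). The 6 members of cluster 7a, Zfp628 to Zfp580, have a median length of 5.41 kb; all had H4WT and H4K91R regions and 0 had an H4K91Q region, and the span held 299 H4WT regions per Mb against 26.9 over the autosomes. The 10 members of cluster 7i, Zfp553 to Zfp646, all had H4WT and H4K91R regions and 2 had an H4K91Q region. In cluster 6, H4WT marked 8 of 8 members, H4K91R 6 and H4K91Q 1. At the other end, the largest cluster, 13b with 24 members from Zfp640 to Zfp273, had 5 members marked by H4WT, 4 by H4K91R and 2 by H4K91Q, and 16 had no tagged region. Cluster 17a, with 23 members from Zfp160 to Zfp13, had 7, 5 and 3 marked members and 14 with none. No member was marked by H4WT in clusters 7c, 10 and 2c, which hold 4, 4 and 1 members. The 1 member of 2c, Zfp965, met the rule through Zfp968 and Zfp966, which did not meet it themselves.

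**Figure D3:**
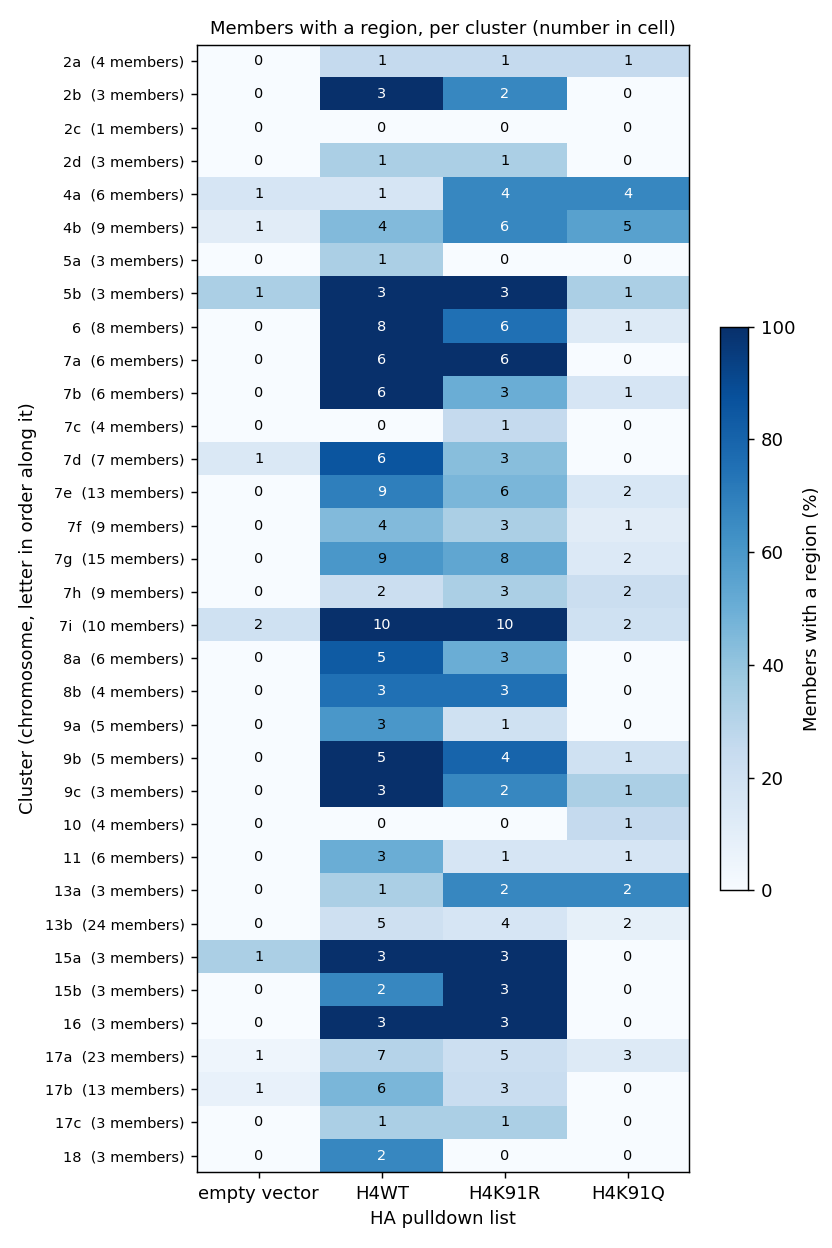
Members with a region in each of 34 clusters (rows, with the number of members) and 4 lists (columns). Colour gives the percent of the cluster's members with a region and the number in each cell their count; all members of 7a and 7i have H4WT, while 4a, 4b and 13a have more members with regions of each mutant than with H4WT.

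H4K91Q regions were widespread over the clusters but unevenly so. They were present in 24 of 34 spans, and the 18 clusters of 5 or more members had a median of 14.7 per Mb, with 30 regions in 17a, 19 in 7i, 18 in 7e and 17 in 7f. The spans of 4 clusters held more H4K91Q than H4WT regions, although the H4WT list is the longer by far. These were 13a with 43 H4K91Q against 6 H4WT regions, 4b with 45 against 23, 4a with 19 against 15, and 9c with 4 against 3. The density of H4K91Q regions reached 95.2 per Mb in 13a and 62.0 per Mb in 4b, against 5.66 over the autosomes. H4K91R followed in the same places, with 28 regions in 13a, 49 in 4b, 25 in 4a and 7 in 9c. Cluster 7h on chromosome 7 held 29 H4WT, 45 H4K91R and 26 H4K91Q regions. In clusters 4a, 4b, 13a and 7h together, a set chosen after their values were seen, 13 of 27 members had an H4K91Q region; in the other clusters 20 of 203 did (9.85%), closer to the all-gene 7.59%. There were also 8 clusters with H4WT regions in the span and 0 H4K91Q regions, among them 2b with 102 H4WT regions, 15a with 69, 7a with 42 and 7d with 22. Their spans run from 0.0701 Mb in cluster 18 to 0.575 Mb in 7d. At the autosomal 5.66 per Mb a short span can hold 0 H4K91Q regions. The empty vector had 0 regions in 13a, 1 in 4b, 4 in 4a and 0 in 9c. The zinc finger clusters of chromosomes 4 and 13 are known for recent duplication, and how well short reads can be placed there was not tested.

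**Figure D4:**
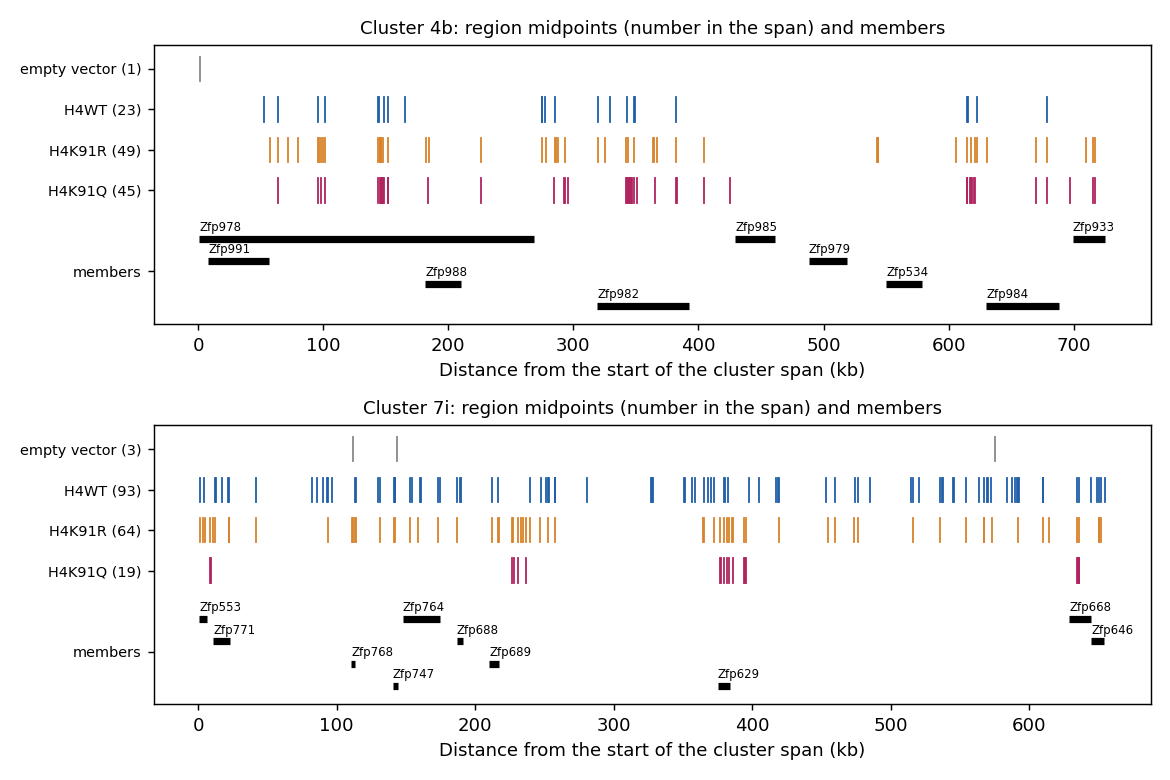
Midpoints of regions in the 4 lists (coloured ticks, number in the span beside each list) and members (black bars) along clusters 4b and 7i, by distance from the start of the span in kb (x axis). Cluster 4b has 23 H4WT, 49 H4K91R and 45 H4K91Q regions, and cluster 7i has 93, 64 and 19.

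Within the spans, the histones also differed in whether their regions fell in members, in other genes or between genes. H4WT regions lay most densely in the windows of other protein-coding genes (131 per Mb), then in members' windows (49.2 per Mb) and in the rest of the spans (23.1 per Mb), placed by region midpoint. H4K91R had the same order, with 75.8, 43.9 and 26.6 per Mb. H4K91Q had its lowest density in the other genes, at 6.97 per Mb, against 18.4 in members' windows and 20.2 in the rest of the spans. Genome-wide, H4K91Q was also sparser in genes, with 3.3 per Mb in all protein-coding gene windows (counted by overlap) and 5.66 over the autosomes. The same values were 48.9 and 26.9 for H4WT and 29.2 and 19.2 for H4K91R. The 208 other protein-coding genes that start in the spans carried H4WT in 61.1% (54.1 to 67.7; all genes 70.8%), H4K91R in 51.0% (44.0 to 57.9; all genes 55.3%) and H4K91Q in 8.17% (4.83 to 12.8; all genes 7.59%). Of these, 37 carry symbols of the Gm or Rik kind, and H4WT marked 9 of them (24.3%, 11.8 to 41.2). H4WT marked 69.0% of the other 171 (61.5 to 75.8). The share among Gm and Rik genes elsewhere was not taken.

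Starts of members could be placed where the promoter table gave a strand, for 199 of 230. A larger share of H4WT regions lay near the start in members than in genes at large, with no matching for gene length. Of 225 H4WT regions in these members, 37.3% had their midpoint within 1 kb of the start (31.0 to 44.0). The share was 28.4% over all genes. In remaining Zfp genes it was 29.4% (24.7 to 34.5), an interval that overlaps that of the members. Members' H4K91R regions had 23.4% there (17.6 to 30.1), against 27.3% over all genes. Their H4K91Q regions had 3 of 74 there, or 4.05% (0.844 to 11.4), against 5.06% over all genes. Of the H4K91Q regions, 90.5% lay in the interior of the gene (81.5 to 96.1), as did 89.7% over all genes, so the members' H4K91Q regions were not set apart in this respect. With the gene divided into 5 equal parts, the part next to the start held 44.1% of members' H4WT regions (37.1 to 51.2), against 34.8% over all genes. In remaining Zfp genes that part held 38.7% (33.4 to 44.3), an interval that overlaps that of the members. The members' values there were 33.7% in H4K91R (26.8 to 41.2) and 15.9% in H4K91Q (8.24 to 26.7). Over all genes they were 34.6% and 18.5%. Neither mutant differed there from genes at large beyond counting error. H4K91Q was densest in the second part, with 22 of 69 regions (31.9%, 21.2 to 44.2), against 18.8% over all genes. Zfp982 alone held 8 of these 22, and without it the share was 24.6% (14.1 to 37.8), which no longer differs from that of all genes beyond counting error.

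**Figure D5:**
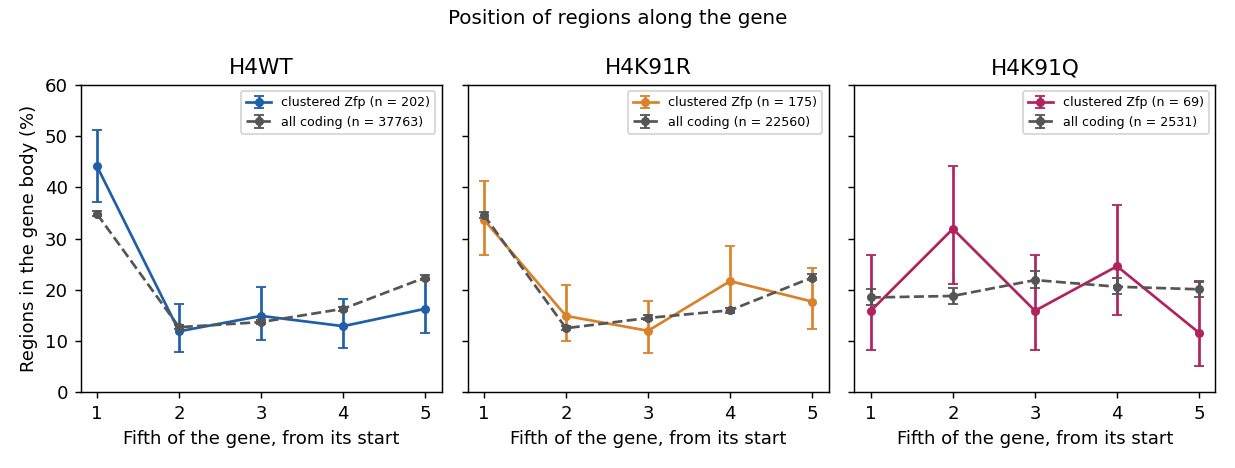
Percent of regions inside genes (y axis) by equal part of the gene, 1 to 5 from its start (x axis), for clustered Zfp genes (solid) and all protein-coding genes with a known strand (dashed), in the H4WT, H4K91R and H4K91Q lists. Points are shares with exact 95% intervals for counting error. H4WT and H4K91R peak in the part at the start (44.1% and 33.7% in members, 34.8% and 34.6% in all genes). H4K91Q has 15.9% there in members and 18.5% in all genes.

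The promoters of members had a lower median CpG count than promoters at large, 11 against 14, and H4WT lay more often on those with more CpG. Members had fewer promoters with 20 or more CpG, 38 of 199 against 6147 of 16456 over all genes. Those with 0 to 9 CpG were about as frequent, 78 of 199 and 6812 of 16456. A promoter here is the RefSeq window of 300 bases, 250 before to 50 after the start site, on build GRCm38.p6 (mm10). The motif counted was CG, which reads the same on both strands; 198 of 199 member promoters hold it, as do 15640 of 16456 promoters of all genes (95%). The 5 windows below are those of members with the highest folds over the promoter, Zfp629, Zfp660 and Zfp872, and those of 2 of the longest members without a region there, Zfp936 and Zfp993; capitals mark each CG. Zfp629 is at chr7:127615223-127615522 on the minus strand, Zfp660 at chr9:122902998-122903297, Zfp872 at chr9:22187916-22188215, Zfp936 at chr7:43177340-43177639 and Zfp993 at chr4:146512599-146512898, the last 4 on the plus strand.
Zfp629: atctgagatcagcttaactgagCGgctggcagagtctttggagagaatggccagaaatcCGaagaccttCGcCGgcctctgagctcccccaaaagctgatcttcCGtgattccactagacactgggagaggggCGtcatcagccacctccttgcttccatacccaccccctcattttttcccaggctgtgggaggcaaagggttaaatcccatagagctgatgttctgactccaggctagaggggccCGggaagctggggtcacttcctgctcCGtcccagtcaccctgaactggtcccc
Zfp660: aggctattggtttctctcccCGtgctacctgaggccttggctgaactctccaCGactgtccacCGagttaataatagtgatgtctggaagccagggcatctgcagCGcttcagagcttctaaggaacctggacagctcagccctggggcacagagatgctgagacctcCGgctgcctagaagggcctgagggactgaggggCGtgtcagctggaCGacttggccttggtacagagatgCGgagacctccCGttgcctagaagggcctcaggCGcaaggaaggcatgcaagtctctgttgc
Zfp872: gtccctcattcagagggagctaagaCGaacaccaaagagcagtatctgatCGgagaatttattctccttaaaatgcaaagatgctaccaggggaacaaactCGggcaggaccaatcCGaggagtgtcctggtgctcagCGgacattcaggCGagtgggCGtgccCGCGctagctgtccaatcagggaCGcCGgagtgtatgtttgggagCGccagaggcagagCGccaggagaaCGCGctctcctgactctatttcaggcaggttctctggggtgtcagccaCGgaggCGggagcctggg
Zfp936: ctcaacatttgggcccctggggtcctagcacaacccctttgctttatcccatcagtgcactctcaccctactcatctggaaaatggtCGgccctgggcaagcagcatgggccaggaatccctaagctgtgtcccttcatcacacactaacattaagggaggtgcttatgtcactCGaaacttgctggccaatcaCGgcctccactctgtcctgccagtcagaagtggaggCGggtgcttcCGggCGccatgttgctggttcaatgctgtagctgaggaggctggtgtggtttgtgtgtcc
Zfp993: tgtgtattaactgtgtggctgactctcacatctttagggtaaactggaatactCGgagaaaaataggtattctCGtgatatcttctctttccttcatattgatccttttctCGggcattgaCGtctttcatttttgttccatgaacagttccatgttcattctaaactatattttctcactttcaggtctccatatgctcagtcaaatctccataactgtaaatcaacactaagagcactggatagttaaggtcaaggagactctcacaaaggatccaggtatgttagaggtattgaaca

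The 3 windows with regions hold more CG than the other 2, but their folds do not follow the CG count. Zfp872, with 17 CG, was overlapped by an H4WT region of fold 10.7, an H4K91R region of fold 16.4 and an H4K91Q region of fold 4.17. Zfp629, with 8 CG, had regions of all 3 as well, with folds of 12, 17.0 and 3.89, and Zfp660, with 10 CG, had H4WT at fold 12.7 and H4K91R at 9.03. Zfp936 with 6 CG and Zfp993 with 4 had none. The Zfp936 window lies 63.4 kb inside the gene as the gene table places it, and at that outer start the gene had an H4K91R region of fold 4.23. Folds are the authors' enrichment at the peak over its background, and they are used to rank regions within 1 list and not between lists.

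Over all members the relation to CG was clearer. H4WT lay over 58 of 199 member promoters (29.1%, 22.9 to 36.0), against 46.8% of remaining Zfp promoters and 41.8% of all promoters. The median CG count was 19 in the member promoters with an H4WT region and 9 in those without, and 11 in members, 18 in remaining Zfp genes and 14 in all genes. Of member promoters with 20 or more CG, 27 of 38 had H4WT (71.1%, 54.1 to 84.6), near the 73.8% of all promoters in that band. With 10 to 19 CG, 26 of 83 had it (31.3%, 21.6 to 42.4), below the 50.5% of all promoters, and with 0 to 9 CG, 5 of 78 had it (6.41%, 2.11 to 14.3), near 8.44%. H4K91R lay over 18 member promoters (9.05%, 5.45 to 13.9) against 17.5% of all promoters. In the band of 20 or more CG it lay over 6 of 38 member promoters (15.8%, 6.02 to 31.3), an interval that includes the 30.7% of all promoters. Of the remaining Zfp promoters in that band, 25 of 54 had it (46.3%, 32.6 to 60.4). With 10 to 19 CG it lay over 8 of 83 member promoters (9.64%, 4.25 to 18.1), below the 20.2% of all promoters. H4K91Q lay over 2 member promoters, those of Zfp629 and Zfp872 (1.01%, 0.122 to 3.58), an interval that includes the 0.346% of all promoters. The empty vector lay over 0 of 199 (at most 1.84%) and 0.170% of all promoters. The divergent neighbours Zfp942 and Zfp943 on chromosome 17 share 2 H4WT regions, of fold 6.60 and 6.51, 1 on each side of their starts.

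Zfp629, in cluster 7i (chr7:127607028-127615785, minus strand, 8.76 kb), had the highest fold of all members in each tagged list. Its H4WT region at chr7:127610385-127612485 had a fold of 29.9, its H4K91R region at chr7:127610075-127613090 a fold of 54.8, and its H4K91Q region at chr7:127609888-127613558 a fold of 20.8. The 3 overlap in the middle of the gene, with midpoints at 49.7%, 48.0% and 46.4% of its length from the start. The H4K91Q region is the widest of the members' in that list, at 3671 bp. The gene had 3 H4WT, 4 H4K91R and 5 H4K91Q regions and 0 of the empty vector. Zfp787 in cluster 7b followed in H4WT and H4K91R, with folds of 20 and 23.7, and had an H4K91Q region of fold 6.44; these regions lay near the far end of the gene, at 95.9%, 96.5% and 95.2% of its length.

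Several other members carried all 3 tagged histones at 1 place away from the start. In Zfp13 (cluster 17a) the folds were 14.0 for H4WT, 16.3 for H4K91R and 4.07 for H4K91Q, with midpoints at 77.9%, 78.0% and 79.0% of the gene. In Zfp668 (cluster 7i) they were 12.4, 14.5 and 5.99, at 55.8%, 55.9% and 57.5%. In both genes the regions of the 3 lists overlapped. Zfp575, a 4.0 kb gene in cluster 7e, had 5 H4WT, 4 H4K91R and 3 H4K91Q regions, with highest folds of 12.9, 19.6 and 5.47. Zfp420 in cluster 7g had 1 region in each list, with folds of 12, 12.6 and 5.57. Zfp579 in cluster 7a had H4WT at fold 14.0 and H4K91R at 8.84 over the same stretch, at 60.8% of the gene, and 0 H4K91Q regions. Zfp872 in cluster 9b had 4 H4WT, 6 H4K91R and 5 H4K91Q regions. The highest H4WT and H4K91R regions were at its start, where an H4K91Q region also lay, and the highest H4K91Q region, of fold 6.4, was at 14.5% of the gene and met regions of both others.

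The 4 marker genes did not behave alike. Zfp808 in cluster 13a (chr13:62129857-62173938, plus strand) had 3 H4WT regions with a highest fold of 5.57, 7 H4K91R regions up to 8.19 and 9 H4K91Q regions up to 6.77. Regions of all 3 histones met at 1 place at 74.2% of the gene, while its highest H4K91Q region, at 18%, met H4K91R but not H4WT. Zfp934 in the same cluster (chr13:62516795-62579321) had 0 H4WT regions, 6 H4K91R regions up to 7.65 and 9 H4K91Q regions up to 8.19. The mutants thus shared this gene with no H4WT region in it. Zfp935, which lies between them and is 13.8 kb long, had no region in any list. Zfp992 in cluster 4a kept 0 H4WT regions and 1 region of each mutant, overlapping, with folds of 5.98 for H4K91R and 5.72 for H4K91Q. It also had an empty-vector region of fold 5.69 elsewhere in the gene, and an H4WT region of fold 3.83 and an H4K91R region of fold 4.45 that overlapped it were left out for that reason. Its lack of H4WT thus rests on the removal of empty-vector overlaps.

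Cluster 4b held the members with the most H4K91Q regions. Zfp982 (73.0 kb) had 6 H4WT, 9 H4K91R and 12 H4K91Q regions. Its highest H4WT region, of fold 7.01, lay 143 bp from the start and met H4K91R but not H4K91Q. Its highest H4K91R region, of fold 16.3, lay at 39.9% of the gene and its highest H4K91Q region, of fold 10.1, at 33.2%; both met the other tagged lists. The highest H4WT and the highest mutant regions of this gene were thus at different places. Zfp978 had 9, 19 and 15 regions, with highest folds of 15.5, 19.7 and 8.78, over a gene model of 267 kb that contains other members, and an empty-vector region of fold 4.40. Zfp984 had 1 H4WT, 3 H4K91R and 2 H4K91Q regions up to 5.39, 6.34 and 6.97. Zfp933 had 0 H4WT, 3 H4K91R and 2 H4K91Q regions, with folds up to 8.98 and 7.30. Zfp985, a member of the same cluster with a length of 31.9 kb, had none in any list.

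Zfp445 in cluster 9c, whose protein maintains DNA methylation at imprinted loci together with ZFP57, is among the 5 members of highest fold in the H4K91Q list. It had 1 H4WT region of fold 4.57, 5 H4K91R regions up to 5.66 and 4 H4K91Q regions up to 9.17. The highest H4K91Q region, at chr9:122858566-122860673, is 2108 bp wide, lies at 71.8% of the gene, met H4K91R regions and met no H4WT region. In Zfp180 (cluster 7e), H4WT lay only at the start, with 1 region of fold 5.87 centred 255 bp into the gene, and the highest mutant regions lay at 92.4% for H4K91R (fold 10.4) and 92.6% for H4K91Q (fold 5.98). Zfp936 in cluster 7h (77.9 kb) had 2 H4WT regions up to 4.19, 8 H4K91R regions up to 9.43 and 6 H4K91Q regions up to 7.45, the highest of each between 19.1% and 23.3% of the gene.

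The 11 members with regions of both mutants and none of H4WT (Zfp992 through the removal of empty-vector overlaps) lay in clusters on 5 chromosomes. By H4K91R fold the first 10 were Zfp729a (10), Zfp600 (9.57), Zfp933 (8.98), Zfp975 (7.66), Zfp934 (7.65), Zfp850 (7.40), Zfp992 (5.98), Zfp758 (5.81), Zfp160 (5.02) and Zfp442 (4.76). Their H4K91Q folds ran from 3.61 in Zfp729a to 8.19 in Zfp934, and 6 of them had 1 region of each mutant. The last of the 11, Zfp988 (4.02), lies inside the gene model of Zfp978, which had 9 H4WT regions. Its 2 H4K91R regions and 1 H4K91Q region were counted for Zfp978 as well, so it is not a separate place.

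The 42 members marked by H4WT alone were led by Zfp14 (fold 10.3), Zfp382 (9.41), Zfp345 (9.11), Zfp566 (8.21) and Zfp820 (8.10). The H4WT region of Zfp820 lies at the edge of its window and met an H4K91R region beyond it, the 1 such case among the 42. Of these leaders, Zfp14, Zfp382 and Zfp566 lie in cluster 7g. The longest members with no region in any list were Zfp976 (34.8 kb), Zfp946 (32.5 kb) and Zfp985. The highest empty-vector folds in members were in Zfp747 (6.98), Zfp707 (6.52) and Zfp992. Zfp747 and Zfp707 also had H4WT and H4K91R regions and 0 of H4K91Q.

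Given next are 4 members with well-known roles, named for those roles after their values were seen. They had H4WT and H4K91R regions and none of H4K91Q, as did 65 of 230 members (28.3%) and 46.1% of all genes. Zfp445, whose role is given above, did have H4K91Q regions. Zfp809, whose protein silences retroviruses through their primer binding site, had 1 H4WT region of fold 4.73 and 1 H4K91R region of fold 3.6. Zfp568, whose protein represses a placental promoter of Igf2, had 2 H4WT regions up to 7.45 and 1 H4K91R region of fold 4.71. Zfp36 (tristetraprolin), an RNA-binding protein of another zinc finger type that the naming rule brings in, had 5 H4WT regions up to 8.37 and 2 H4K91R regions up to 5.51. Zfp335, needed in neural progenitors, had 9 H4WT and 8 H4K91R regions, up to 10.5 and 8.01.

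Further members of highest fold in the larger clusters are as follows. In cluster 6, Zfp467 had folds of 10.5 in H4WT and 8.33 in H4K91R, the order kept in what follows, Zfp777 of 7.71 and 9.42, and Zfp398 of 10.2 and 7.25 with an H4K91Q region of 3.42. Zfp606 led cluster 7d with folds of 12 and 7.40, and Zfp653 led H4WT in cluster 9b with 10.8 beside an H4K91R fold of 6.37. Zfp607b led H4WT in cluster 7f with 10 and had H4K91R at 7.20. In cluster 13b the highest H4WT fold was 6.77 in Zfp748, which had no mutant region, and Zfp455 had an H4K91Q region of fold 3.92 alone. In cluster 17b, Zfp414 had H4WT at 7.42 and H4K91R at 4.23, and Zfp81 had H4K91R alone at 6.87. In cluster 8a, Zfp964 had 8.71 and 4.45 and Zfp963 had 3.76 and 6.48. In cluster 9a, Zfp560 had H4WT alone at 6.06, and Zfp426 had 4.59 and 4.82. Zfp354a led cluster 11 with 9.54 and 4.72, where Zfp2 had H4WT at 5.05 and H4K91Q at 3.92. Zfp141 led H4WT in cluster 7h with 5.88 and had no mutant region.

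Among the remaining Zfp genes, H4WT folds were led by Zfp385a (14.9), Zfp319 (14.0), Zfp423 (13.7), Zfp703 (12.9) and Zfp648 (12.7), below the 20 of Zfp787 and the 29.9 of Zfp629 in the same list. None of these 5 had an H4K91Q region, although Zfp423, a regulator of fat cell precursors, is 300 kb long and had 42 H4WT and 35 H4K91R regions beside 7 of the empty vector. The highest H4K91Q folds of that set were Zfp385c (14.3), Zfp11 (10) and Zfp951 (8.20), and each also had H4WT and H4K91R regions.

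A list of 27 genes was taken from the KRAB zinc finger silencing pathway and from H3.3 and H4 deposition at silenced DNA. All were found, and they were marked about as often as genes at large. H4WT marked 23 of 27 (85.2%, 66.3 to 95.8; all genes 70.8%), H4K91R 15 (55.6%, 35.3 to 74.5; all genes 55.3%) and H4K91Q 2 (7.41%, 0.910 to 24.3; all genes 7.59%). The empty vector marked 2 (all genes 8.01%), and each of these intervals includes the all-gene share. Trim28, which encodes the shared corepressor, had 3 H4WT regions up to fold 10.8 and 1 H4K91R region of 4.02. The highest H4WT folds were those of the DNA methyltransferase gene Dnmt3a (12.2), the H3 lysine 9 methyltransferase gene Suv39h2 (11.4) and the deacetylase gene Hdac2 (10.9). The 2 with H4K91Q were Atf7ip, the partner of SETDB1, at fold 8.55, and Morc3 at 8.23, and both also had H4WT and H4K91R regions. Setdb1, Resf1, Cbx1 and Cbx5 had no region in any list.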

How the data were processed

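HA ChIP-seq peak lists of 4 mESC pulldowns were used, 1 library each, grouped by sample title. Peaks were called with MACS2 on mm10, per the submitters' processing notes; aligner, MACS2 version, duplicate handling and q cutoff: not given in the sources used here. The authors' deposited columns are a score, a fold (a ratio of enrichment), −log10 p and q values and the summit offset. Fold ranked regions within a list; −log10 q shortened lists in alternatives; score and −log10 p were not used. Depth is unknown.

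Overlapping or adjoining peaks were merged (0 lost), and tagged regions touching an empty-vector region by 1 bp were left out. Gene ends, without exons, came from the RefSeq table of GRCm38.p6, and strand and promoters from the RefSeq promoter table, which had 199 of 230 members; its start site lay within 1 kb of the gene end used in 169 of these. Clusters join members that start within 500 kb of the last. Shares have exact 95% intervals; no test or p-value was made. The members, lists and rules were chosen with earlier results of these data known. Genes named are the 4 markers, the highest folds per tagged list and per cluster of 5 or more members, those with H4K91Q, mutant pairs without H4WT, H4WT alone or empty-vector regions, the longest unmarked members, and leading remaining Zfp and silencing genes; exceptions are stated. Planned protein features were not run. Marking was tested on simulated regions, where 200 of 200 planted genes were found and 385 of 385 genes called correctly. Analysis used python 3.11.15, pandas 2.3.3, numpy 2.4.6, scipy 1.17.1 and matplotlib 3.10.9. Other settings tried, with 3 added after seeing the data, are given in the closing section.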

Additional observations from a re-analysis of the deposited data

How the results depend on the processing

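Of 76 shares of genes under alternative settings, 58 stayed within the interval of the reported share. With a −log10 q of 5 or more, members were marked in 47.8% by H4WT, 32.6% by H4K91R and 1.74% by the empty vector, and remaining Zfp genes in 52.9% by H4K91R. All genes then had 66.5% for H4WT, 40.7% for H4K91R and 2.41% for the empty vector. With the H4WT and H4K91R lists shortened to the length of the H4K91Q list, members were marked in 23.5% by H4WT and 26.5% by H4K91R, so that the order of these 2 lists turned; the shares were 46.5% and 33.5% in remaining Zfp genes and 38.7% and 25.8% in all genes, so that the members' H4K91R share no longer lay below that of all genes. With the 1 kb around gene ends alone, members had 41.7% for H4WT, 27.4% for H4K91R, 3.91% for H4K91Q and 1.74% for the empty vector; remaining Zfp genes had 72.3%, 47.7%, 2.58% and 1.94%, and all genes 60.8%, 39.8%, 1.33% and 1.76%. With genes under 40 kb only, added after seeing the data, remaining Zfp genes had 55.2% for H4K91R and 6.03% for H4K91Q, where members had 11.2% and all genes 3.49% for H4K91Q. The other settings were empty-vector overlaps kept, no flank or 5 kb, 50% of the region inside, and neighbours within 250 kb or 1 Mb (192 and 248 members). The order of members, remaining and all genes in H4WT was the same in each of these. No paired analysis was possible because each group has 1 library. Unknown depth and closely related gene copies limit every share. The share of H4K91Q regions in the second of 5 parts of the gene was also taken without Zfp982, an alternative added after seeing the data, and was 24.6% against 31.9%.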
